A study of Arabidopsis thaliana with 6 samples.

Results

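Root hairs are tubular outgrowths of single epidermal cells of the root. In Arabidopsis thaliana, basic helix-loop-helix (bHLH) regulators of the RHD6 and RSL class switch on the genes of the growing hair. Those genes encode proteins that loosen the wall at the tip (expansins), build its glycoprotein network (extensins and proline-rich proteins) and act on that network with reactive oxygen (class III peroxidases and an NADPH oxidase). The root hair genes described here are 49 loci listed by name: hair expansins, extensins, proline-rich proteins, hair peroxidases, genes named root hair specific, regulators and signalling genes. A locus counted as measured where the platform's probe table paired it with a probe set of that 1 gene, and 15 of the 49 loci (30.6%) were measured among 17504 probe sets with a gene.

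The arrays hold biotin-labelled total RNA of whole seedlings of the line 35S::PLT2-GR. The 35S promoter, active in most cells of the plant, drives a fusion of the AP2-domain transcription factor PLT2 with a glucocorticoid receptor fragment, which keeps the protein out of the nucleus until dexamethasone is added. The 3 mock arrays come from flasks given the solvent DMSO and the 3 dexamethasone arrays from flasks given 10 µM dexamethasone, both for 6 h, with about 50 seedlings that were 4 days old when moved to a flask, and every flask held the same line. No seedlings without the fusion were given dexamethasone among these arrays, so effects of the agent and of the fusion cannot be told apart, and a fusion driven in most tissues does not show what PLT2 does in its own cells.

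The measured genes fall into a few roles. Both listed expansin genes were measured, as were 3 of 5 peroxidase genes, 6 of 11 extensin genes, 3 of 4 other wall and secretory genes and 1 of 5 bHLH regulators. The other 34 loci were not analysed here, because the probe table names no probe set for them. The table leaves 20904 probe sets unnamed, and some of those may belong to these loci. They include RHD6, RSL1, RSL2 and RSL4 among the regulators, all 12 loci of the group around the root hair specific genes, the leucine-rich repeat extensins LRX1 and LRX2, the proline-rich proteins PRP1 and PRP3, the NADPH oxidase gene RHD2, and the genes of the GPI-anchored proteins SHV2 (also called COBL9) and SHV3. The description below is therefore one of wall and secretory genes for 14 of its 15 members.

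Most of the measured root hair genes were lower after dexamethasone. The values are log2 probe set values, and a change is the dexamethasone mean minus the mock mean on that scale. By limma, with Benjamini-Hochberg adjustment over all 17504 probe sets with a gene and an adjusted p of 0.05 as the threshold, 12 of the 15 fell and 0 rose. Of all probe sets with a gene, 9.54% fell and 9.04% rose. At an unadjusted p under 0.05, 14 of the 15 were lower and 0 higher, against 16.3% lower and 16.4% higher over all probe sets. A negative change was found for 14 of the 15, against 46.8% of all probe sets. Among the 15 genes 9 fell at least 2-fold, against 1.75% of all probe sets. The median change of the 15 genes was -1.23, and the median over all probe sets with a gene was 0.02. The loci had been listed with earlier results of these data known, so these comparisons describe the genes and do not test them as a set. In whole seedlings, fewer hair cells and less of these RNAs per hair cell cannot be told apart.

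**Figure D1:**
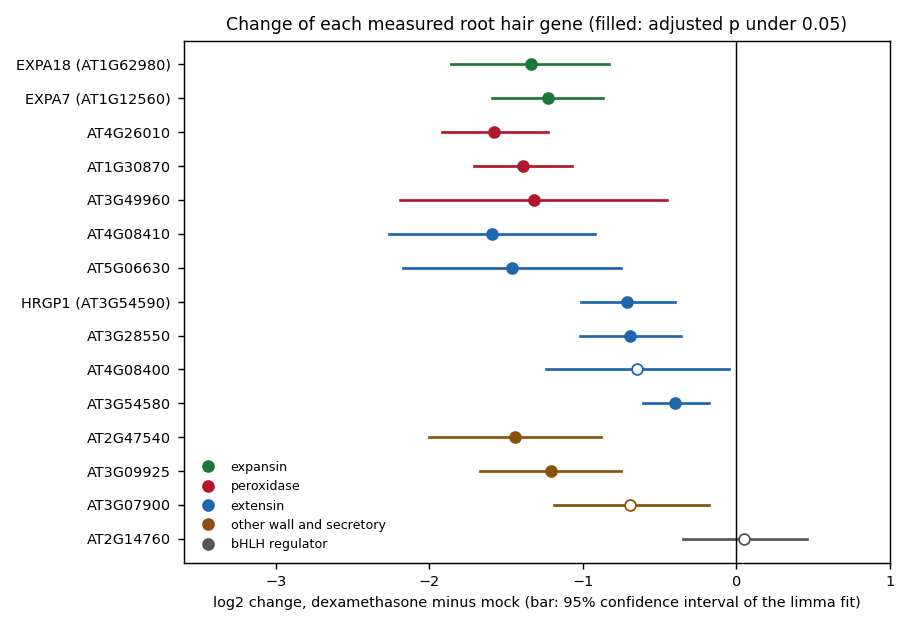
Log2 change (dexamethasone minus mock, x axis) of the 15 measured root hair genes with the 95% confidence interval of the limma fit, coloured by role, from 3 arrays a group. Filled points are the 12 genes with an adjusted p under 0.05; 14 of the 15 points lie left of 0, and the bHLH gene AT2G14760 lies at 0.05.

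The values of the expansin genes show the size of the shift. Expansins are secreted proteins that loosen cell walls, and EXPA7 and EXPA18 are the ones known for their expression in hair-forming cells. EXPA7 (AT1G12560) had log2 values of 6.4, 6.19 and 6.03 in the mock arrays and 4.74, 5.21 and 4.99 in the dexamethasone arrays. Its lowest mock array was 0.82 above its highest dexamethasone array. The change was -1.23 (SE 0.15, adjusted p 0.00286), or 2.34-fold lower. EXPA18 (AT1G62980) had 6.28, 6.1 and 6.13 in mock and 4.47, 5.34 and 4.66 with dexamethasone. Its mock arrays lay close together (SD 0.09, n = 3), while dexamethasone replicate 2 stood above the other dexamethasone arrays (SD 0.46, n = 3), and the groups did not overlap. It fell 2.54-fold (change -1.34, SE 0.22, adjusted p 0.00755).

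Both expansin genes had changes of similar size. Within each array the EXPA18 value was set against the EXPA7 value, and the change of EXPA18 minus that of EXPA7 was -0.12 (exact two-sided permutation test, p = 0.6, n = 3 a group). With 3 arrays a group this test cannot go below 0.1, so its p does not show that both genes changed alike. Among the 20 other expansin genes with a probe set of their own, taken by their RefSeq symbols, 4 fell and 1 rose, with a median change of 0.04 and a range from -1.12 to 0.56. Of all probe sets with a gene, 9.54% fell and 9.04% rose. EXPA7 and EXPA18 both had changes below the range of the other expansins. However, EXPA8 (change -1.12), EXPB1 (-1.06) and EXLA1 (-1.03) also fell at least 2-fold. Their changes lay inside the limma confidence intervals of EXPA7 (-1.59 to -0.87) and EXPA18 (-1.86 to -0.83), so a strong fall was not particular to EXPA7 and EXPA18. The pair had been chosen as hair genes with earlier results known, and the difference from the other expansins was not tested.

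**Figure D2:**
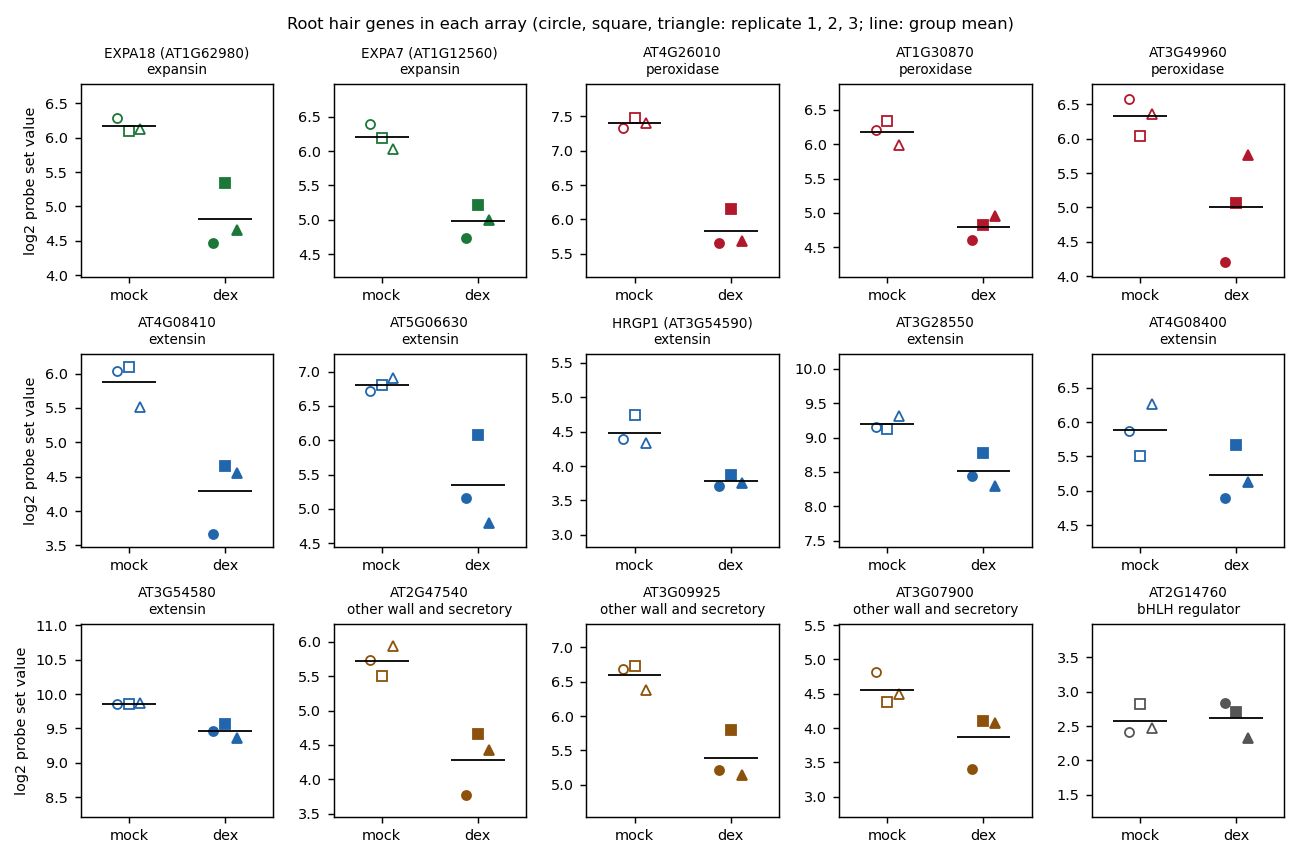
Log2 probe set value (y axis, each panel spanning the same 2.8 log2 units) of each measured root hair gene in the 3 mock arrays (open) and the 3 dexamethasone arrays (filled), with circle, square and triangle for replicates 1, 2 and 3 and a line at the group mean. All dexamethasone points lie below all mock points for 13 of the 15 genes, and the groups overlap for AT4G08400 and AT2G14760.

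All 3 measured hair peroxidase genes fell, against 9.54% of all probe sets with a gene. Class III peroxidases are secreted haem enzymes that use hydrogen peroxide to cross-link or loosen wall polymers, extensins among them. AT4G26010 had log2 values of 7.33, 7.47 and 7.41 in mock and 5.66, 6.15 and 5.68 with dexamethasone. Its groups were 1.19 apart at their nearest arrays, the widest gap among the 15 genes, and it was 2.98-fold lower (change -1.58, SE 0.15, adjusted p 0.00102). Only 18 of the 17504 probe sets had a lower change.

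AT1G30870 had values of 6.21, 6.34 and 5.99 in mock and 4.6, 4.82 and 4.96 with dexamethasone. Both groups were equally tight, with SD 0.18 each (n = 3), and the gene fell 2.61-fold (change -1.39, SE 0.14, adjusted p 0.0012). AT3G49960 had 6.58, 6.04 and 6.36 in mock and 4.2, 5.07 and 5.76 with dexamethasone. Its dexamethasone arrays spread more than those of any other of the 15 genes (SD 0.78, n = 3), and the nearest arrays of the groups were 0.28 apart. The mean was 2.49-fold lower (change -1.32, SE 0.37), and the adjusted p of 0.0484 was just under the threshold. That call held in 1 of the 6 fits with 1 array left out, the one without dexamethasone replicate 3 (adjusted p 0.0166). Leaving out a mock array gave an adjusted p of 0.138 (replicate 1), 0.0795 (replicate 2) or 0.121 (replicate 3), and leaving out dexamethasone replicate 1 or 2 gave 0.0668 or 0.105. It was also lost with the replicate number as a block (0.0713).

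The extensin genes ranged from a 3-fold fall to no call. Extensins are hydroxyproline-rich glycoproteins with repeated proline-rich motifs that are cross-linked into the wall. Because these repeats are alike between genes, a probe set of 1 extensin gene may also bind the RNA of another, which was not tested. Of the 6 measured, 5 fell, against 9.54% of all probe sets with a gene. AT4G08410 had log2 values of 6.04, 6.09 and 5.51 in mock and 3.67, 4.66 and 4.55 with dexamethasone. Every dexamethasone array was at least 0.85 below every mock array, and the change of -1.59 (SE 0.28, adjusted p 0.0109), 3.01-fold lower, was the lowest of the 15 genes. AT5G06630 had 6.71, 6.8 and 6.91 in mock and 5.16, 6.08 and 4.79 with dexamethasone. Its mock arrays were tight (SD 0.1, n = 3) and its dexamethasone arrays were not (SD 0.66, n = 3), with replicate 2 nearest to mock. It fell 2.76-fold (change -1.46, SE 0.30, adjusted p 0.0176), but leaving out any mock array moved the adjusted p to between 0.0525 (replicate 1) and 0.0589 (replicate 3), and leaving out dexamethasone replicate 1 moved it to 0.0577.

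The other extensin genes that fell did so by less than 2-fold. HRGP1 (AT3G54590), annotated as a hydroxyproline-rich glycoprotein, had values of 4.39, 4.74 and 4.33 in mock and 3.71, 3.87 and 3.76 with dexamethasone. It was 1.63-fold lower (change -0.71, SE 0.13, adjusted p 0.0122) with the tightest dexamethasone arrays of the 15 genes (SD 0.08, n = 3). AT3G28550, an extensin-like gene, had 9.16, 9.12 and 9.32 in mock and 8.44, 8.78 and 8.3 with dexamethasone. It fell 1.61-fold without overlap of the groups (change -0.69, SE 0.14, adjusted p 0.0171). That call was lost when mock replicate 1 (adjusted p 0.0529), mock replicate 3 (0.0569) or dexamethasone replicate 1 (0.0542) was left out.

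AT3G54580 had nearly equal mock values of 9.85, 9.86 and 9.87, and 9.46, 9.56 and 9.36 with dexamethasone. The groups were 0.29 apart at their nearest arrays, and its fall was the smallest among the 12 (change -0.40, SE 0.09, 1.32-fold lower, adjusted p 0.0249). That call held in 1 of the 6 fits with 1 array left out, the one without dexamethasone replicate 2 (0.0379). It was lost when a mock array was left out (adjusted p 0.0795 for replicate 1, 0.0744 for 2 and 0.0691 for 3), when dexamethasone replicate 1 (0.0654) or 3 (0.0636) was left out, and with the replicate number as a block (0.0639). AT4G08400 had 5.87, 5.5 and 6.27 in mock and 4.9, 5.67 and 5.13 with dexamethasone. Dexamethasone replicate 2 lay above mock replicate 2, so the groups overlapped. The change of -0.65 did not pass (adjusted p 0.127), with a 95% interval from -1.24 to -0.05.

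Some of the extensin genes are neighbours on a chromosome. In the RefSeq annotation of TAIR10.1, AT3G54580 and HRGP1 follow each other with 0 protein-coding genes between them, and AT4G08400 and AT4G08410 have 1 between them. The change of HRGP1 minus that of AT3G54580, measured within arrays, was -0.31 (exact two-sided permutation test, p = 0.1, n = 3 a group, the smallest this design allows). The change of AT4G08410 minus that of AT4G08400 was -0.94 (exact permutation p = 0.2). With the expansin pair, 3 pairs were compared, and the Benjamini-Hochberg adjusted values were 0.3 for both neighbour pairs and 0.6 for the expansin pair. These p-values could not have passed 0.05 whatever the values, so they do not show that the genes of a pair changed alike.

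The other wall and secretory genes also had lower values. AT2G47540 encodes a protein of the pollen Ole e 1 allergen and extensin family. It had log2 values of 5.73, 5.51 and 5.94 in mock and 3.77, 4.66 and 4.43 with dexamethasone. The groups were 0.84 apart, and it fell 2.71-fold (change -1.44, SE 0.24, adjusted p 0.00801). AT3G09925, of the same family, had 6.69, 6.73 and 6.38 in mock and 5.22, 5.8 and 5.14 with dexamethasone. It fell 2.32-fold (change -1.21, SE 0.19, adjusted p 0.00732), and again dexamethasone replicate 2 was the one nearest to mock. AT3G07900 encodes a protein of the O-fucosyltransferase family. It had 4.81, 4.38 and 4.49 in mock and 3.41, 4.11 and 4.08 with dexamethasone. Its groups did not overlap, at a distance of 0.26, but the change of -0.69 did not pass (adjusted p 0.066, 95% interval -1.19 to -0.18).

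The only listed hair regulator measured, the bHLH gene AT2G14760, belongs to the RHD6-like class that switches on hair genes. It had log2 values of 2.42, 2.82 and 2.47 in mock and 2.84, 2.71 and 2.32 with dexamethasone. The mock values lay inside the range of the dexamethasone values, and the change was 0.05 (adjusted p 0.869, 95% interval -0.35 to 0.46). It was the 1 member under the first quartile of all values in every array, and signal over background was not analysed here. The other 4 hair regulators listed were not analysed here.

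**Figure D3:**
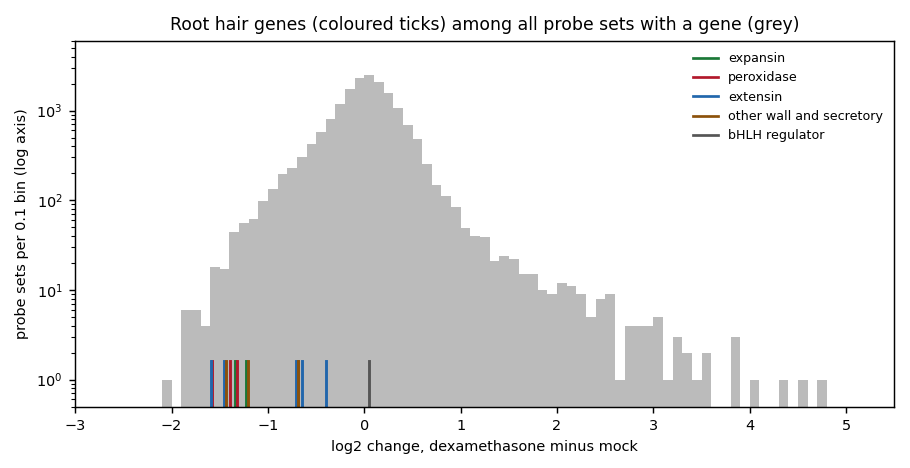
Number of probe sets with a gene per 0.1 log2 units of change (grey, log axis), with a coloured tick at the change of each of the 15 measured root hair genes (tick height has no meaning). The ticks of 13 genes lie in the lowest 10% of all changes, and none lies above 0.05.

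Set among all probe sets, 13 of the 15 genes lay in the lowest 10% of the changes. The exceptions were AT3G54580, with 12.4% of probe sets below it, and AT2G14760, with 54.6% below it. The 2 expansin and 3 peroxidase genes and 4 of the other wall genes lay between 0.0971% (AT4G08410) and 0.823% (AT3G09925). The next genes, HRGP1, AT3G28550, AT3G07900 and AT4G08400, lay between 4.86% and 5.85%. All dexamethasone arrays were below all mock arrays for 13 of the 15 genes, against 18.8% of all probe sets with a gene. The measured members came from all 5 nuclear chromosomes, with 6 of the 15 on chromosome 3 and 1 on chromosome 5.

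The dexamethasone arrays differed among themselves in these genes in a regular way. The median of the 15 genes relative to each gene's mock mean was -1.46 in dexamethasone replicate 1, -0.80 in replicate 2 and -1.22 in replicate 3. Replicate 2 was the highest of the 3 dexamethasone arrays for 12 of the 15 genes and the lowest for 0, and replicate 1 was the lowest for 10. In the mock arrays no such order was seen, with each array the lowest for 4 to 6 of the genes. The SD was larger in the dexamethasone group than in the mock group for 13 of the 15 genes, 0.08 to 0.78 against 0.01 to 0.39 (n = 3 each). The share of all probe sets with a larger SD in the dexamethasone group was not analysed here, so this spread is not shown to be particular to these genes.

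Replicate 2 was also often the highest among other probe sets that fell. With the root hair genes left out, it was the highest of the dexamethasone arrays for 40.2% of the 1658 probe sets that fell and for 50.2% of the 297 that fell at least 2-fold, against 30.3% of all probe sets with a gene. Replicate 1 was the lowest for 43.1% of the 1658 and for 52.9% of the 297, against 32.9% of all probe sets with a gene. The order of the arrays was thus partly shared by other probe sets that fell. Over the 297 the medians relative to mock were -1.31, -1.10 and -1.20 in replicates 1, 2 and 3. Over the 1582 that rose the medians were 0.59, 0.62 and 0.59. Without dexamethasone replicate 1 the median change of the 15 root hair genes was -1.11 and 8 fell, and without replicate 2 it was -1.35 and 11 fell.

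**Figure D4:**
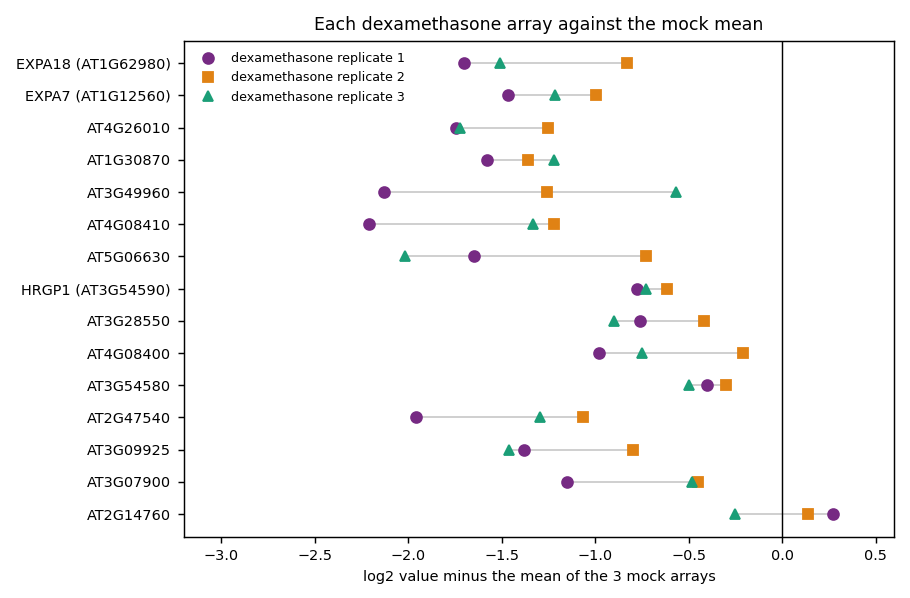
Log2 value in each dexamethasone array minus the mean of the 3 mock arrays (x axis) for each measured root hair gene. Dexamethasone replicate 2 (square) is nearest to or above the mock mean in most rows and is the highest of the 3 for 12 of the 15 genes.

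Other genes of hair formation were covered thinly. Of 11 epidermal patterning genes, which decide which cells form a hair, 2 were measured and by limma 0 passed, also at an unadjusted p under 0.05. JKD, a zinc finger gene that acts from the cortex on hair patterning, had a change of -0.14 (adjusted p 0.415, 95% interval -0.39 to 0.11). TRY, the other patterning gene measured, had a change of 0.37 (adjusted p 0.516). Its 95% interval was wide, from -0.44 to 1.17, and its mock arrays spread widely (SD 0.73, n = 3). Of 23 genes of hair growth signalling and the growth machinery, 2 were measured and 1 fell, against 9.54% of all probe sets with a gene. FER, a receptor kinase needed for hair growth and used in many other tissues, had values of 8.2, 8.22 and 8.16 in mock and 7.88, 7.88 and 7.94 with dexamethasone. It fell by 0.30 on the log2 scale (SE 0.08, adjusted p 0.0466), a call that was lost in each of the 6 fits with 1 array left out (adjusted p 0.074 to 0.132) and with the replicate number as a block (0.111). SCN1, a regulator of ROP GTPases that limits hair initiation to 1 site a cell, had a change of 0.28 and did not pass (adjusted p 0.112). It was higher at an unadjusted limma p of 0.0312.

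Few markers of other seedling tissues were measured, and the counts below stand beside 9.54% of all probe sets with a gene that fell. Of 5 guard cell lineage markers 2 were measured and both fell: SPCH, the bHLH gene that starts the stomatal lineage, by 0.68 (SE 0.10, adjusted p 0.00458), and FAMA (listed as FMA), which completes guard cell formation, by 0.63 (SE 0.13, adjusted p 0.017). The call of FAMA was lost when mock replicate 1 (adjusted p 0.051) or 3 (0.0559) was left out. The summed linear signal of both ranged from 356.6 to 385.1 in mock and from 227.2 to 250.5 with dexamethasone. Of 6 leaf mesophyll markers 2 were measured, RCA and LHCB4.1. RCA, the Rubisco activase gene, fell by 0.32 (adjusted p 0.0475, lost in each of the 6 fits with 1 array left out, at 0.0701 to 0.139). LHCB4.1 had a change of -0.23 and did not pass (adjusted p 0.12), though it was lower at an unadjusted limma p of 0.0346. Their summed signal ranged from 3386 to 3482 in mock and from 2701 to 2958 with dexamethasone. The listed endodermis, xylem, phloem and root cap markers were not analysed here, because 0 of them were measured. No marker value is at 0 on this scale, and the part of shifts between tissues in the fall of the root hair genes was not tested.

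**Figure D5:**
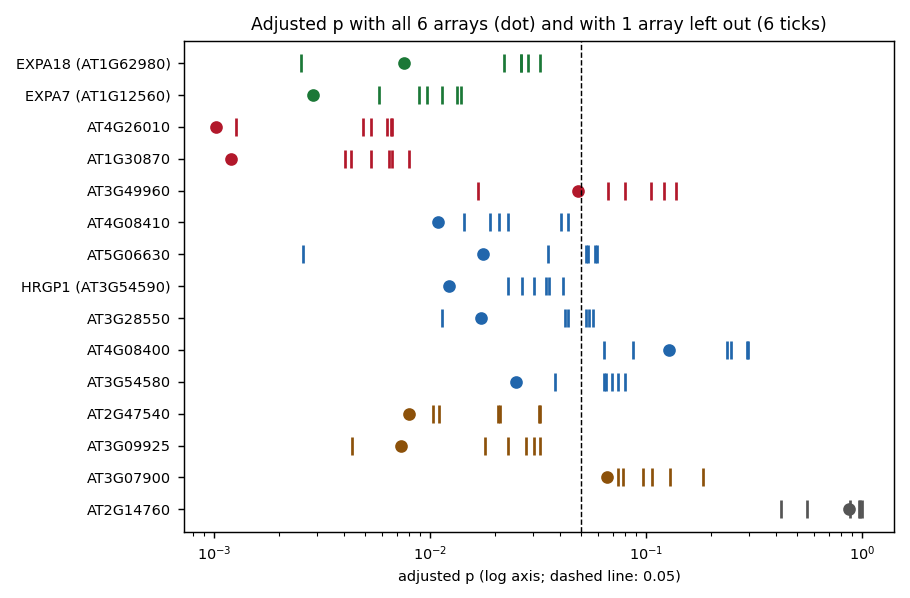
Adjusted p (log axis) of each measured root hair gene with all 6 arrays (dot) and with 1 array left out (6 ticks), with a dashed line at 0.05. For 8 of the 12 genes that fell all ticks stay left of the line; AT3G49960, AT5G06630, AT3G28550 and AT3G54580 cross it.

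The calls differed in how much they rested on single arrays. With 1 array left out, 8 of the 12 falls passed in all 6 fits: those of EXPA7, EXPA18, AT4G26010, AT1G30870, AT4G08410, HRGP1, AT2G47540 and AT3G09925. The changes of these 8 ranged from -1.77 for AT4G08410 to -0.58 for HRGP1 over those fits. The number that fell was 8 when mock replicate 1 or 3 or dexamethasone replicate 1 was left out, 9 when mock replicate 2 was, and 11 when dexamethasone replicate 2 or 3 was, while the share of all probe sets that fell was 5.12% to 7.48%.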

How the data were processed

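The deposited table holds log2 probe set values for 6 arrays, 3 mock and 3 dexamethasone. Per the submitters' processing notes, the tools were RMA and limma 3.24.15; which made these values is not given in the sources used here. Probe sets were joined to loci by gene ID through the platform's probe table and the RefSeq table of TAIR10.1; of 16746 with 1 gene, 16601 matched. Each measured locus had 1 single-gene probe set. Dexamethasone was set against mock by limma 3.58.1 (R 4.3.3; lmFit, eBayes) on the deposited log2 values of all 17504 probe sets with a gene, two-sided, without further normalization. SE is the moderated standard error; SD is over 3 arrays. The code was tested on simulated data. The number of arrays limits the precision. Flasks are biological replicates per the labels.

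Members and lists were chosen with earlier results of these data known. Any measured member could be named, and from each other list up to 3 genes past the threshold or the one with the smallest p; SCN1, LHCB4.1 and TRY were named beyond that rule after their values were seen. The pairs of genes, the comparison with other expansins and that among dexamethasone arrays were also chosen after values were seen. Deviations from the group means correlated at -0.00987, -0.0163 and 0.0305 between arrays of the same number. Between arrays of unlike numbers the correlations ran from -0.0318 to 0.0466. These values gave no sign of pairing by replicate number, but from so few arrays they cannot settle it.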

Additional observations from a re-analysis of the deposited data

How the results depend on the processing

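Of the 12 root hair genes that fell, 8 passed in every refit at an adjusted p of 0.05. At an adjusted p of 0.01, 6 fell (3.6% of all probe sets), and 9 met both an adjusted p of 0.05 and a 2-fold minimum (1.75%). The replicate block gave 10 (7.11%), and quantile normalization, median centring, the dim filter, trend, robust eBayes, array weights, 1 probe set per gene and all probe sets gave 11 to 13 (6.37% to 17%); leaving out 1 array gave 8 to 11 (5.12% to 7.48%), with medians from -1.35 to -1.11. AT3G07900 passed without the dimmest probe sets (0.0409) and with the trend (0.0459). AT3G49960 did not pass with median centring (0.0505), robust eBayes (0.0523) or all probe sets (0.0873). AT2G14760 changed sign with quantile normalization (-0.03) and ranged from -0.05 to 0.21 with 1 array left out; the patterning gene TRY ranged from -0.03 to 0.68. FER did not pass with all probe sets (0.063), nor RCA with those (0.0674), robust eBayes (0.0504) or the block (0.101); with the trend SCN1 (0.0253) and LHCB4.1 (0.0137) passed. Beyond the fewer arrays of some fits, the cause was not tested. Probe sets with several genes held no listed locus, so that alternative and the choice of probe set per locus changed nothing.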
